A study of Mus musculus with 12 samples.

Results

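Public clones were those IGRP tetramer–positive CD8 T-cell clones whose paired TCR α and β nucleotide sequence was recovered from both rounds of the experiment, and private clones were those recovered from 1 round only. A clone was the pair of TCR α and β CDR3 nucleotide sequences in a cell with exactly 1 TRA and 1 TRB contig that had passed the cell filters, and the comparison was limited to cells that joined TRAV16N to TRAJ42. Of 111 such clones, 5 were public and 73 were private with at least 2 cells, 31 of them from Round 1 and 42 from Round 2, and the other 33 were seen in 1 cell. The public clones held 936 cells and the private clones 3350 cells, of 5192 cells with a paired TCR in the 4 tetramer-positive libraries.

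Each round pooled islets and spleens from 10 female NOD/ShiLtJ mice aged 10 to 15 wk, a strain that develops autoimmune diabetes spontaneously, with no treatment or introduced allele in any group. Single CD45.1+ CD8+ cells that lacked CD4, B220 and CD11b and bound a Kd tetramer carrying NRP-V7 were sorted from both tissues. NRP-V7 is a mimotope of a peptide from the β-cell antigen IGRP. Tetramer-negative CD8 T cells were sorted from islets only. Spleen cells also passed a negative selection for CD8 T cells before the sort, and the paper describes the sorted splenic cells as CD44+. The labels and methods tie no cell to a mouse, so a round is 1 pool per tissue, a clone may have come from 1 mouse or from several, and the 2 rounds are the only replicates. The 4 tetramer-positive libraries held 1204 to 3524 cells past the filters and 5880696 to 9607921 UMIs. All 6 markers of CD8 T cells were detected in the public and in the private cells of every library, summing to 5298 to 6616 CPM (UMIs per 1000000 UMIs of that class and library), whereas Cd4, Foxp3 and Cd40lg summed to 0 to 1.1 CPM. Markers of other cells were also present: 6 B-cell genes summed to 43.5 to 128 CPM, mostly immunoglobulin transcripts, 7 myeloid genes to 194 to 225, mostly Cst3, 7 endocrine genes to 0 to 7.04, and 7 exocrine genes to 131 CPM in private and 224 in public cells of Round 2 islets and to 6.73 to 42.2 elsewhere. Their part in the results was not tested.

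T-cell receptors are assembled by joining V and J segments in the α chain and V, D and J segments in the β chain, with bases trimmed from the ends and non-templated (N) bases added by terminal transferase. A receptor that needs few or no N bases can arise many times independently. Clonotypes found in different individuals are called public; here the word means found in both pools. CD8 T cells specific for IGRP in NOD mice are known to share a preferred α chain, and such cells kill insulin-producing β cells.

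The CDR3 sequences of the public clones are shown first because they define the class and because the clones differed from each other by very few bases. Lower-case letters match the ends of the germline V, J or D segments and capitals mark bases that matched none of them, counted here as non-germline.
P1, P3 and P4 α: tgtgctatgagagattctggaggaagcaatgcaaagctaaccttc
P2 α: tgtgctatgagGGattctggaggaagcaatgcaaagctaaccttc
P5 α: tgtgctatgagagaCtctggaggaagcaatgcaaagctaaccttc
P1 and P5 β: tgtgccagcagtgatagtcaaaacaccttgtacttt
P2 and P3 β: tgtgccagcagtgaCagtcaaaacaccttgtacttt
P4 β: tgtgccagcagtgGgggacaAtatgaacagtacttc

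The germline pieces they were read against came from the mm10 reference strain (GRCm38), not from NOD, and are given so that the joins can be followed. On chromosome 14, TRAV16N at chr14:53351028-53351621 and TRAJ42 at chr14:54175773-54175836 lie on the plus strand, as do TRBV13-3 at chr6:41130147-41130585 and TRBJ2-4 at chr6:41543362-41543410 on chromosome 6.
TRAV16N end: tgtgctatgagagaggg
TRAJ42 start: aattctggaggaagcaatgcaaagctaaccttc
TRBV13-3 end: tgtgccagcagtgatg
TRBJ2-4 start: agtcaaaacaccttgtacttt

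P1 carried 0 non-germline bases in either chain: 14 V bases and 31 J bases accounted for its α CDR3, and 15 V bases and 21 J bases for its β CDR3, with no D segment found. P3 differed from P1 by 1 non-germline β base, P5 by 1 non-germline α base, and P2 carried 2 in α and 1 in β. P4 was the only public clone with TRBJ2-7, held 6 bases that matched TRBD1 and carried 2 non-germline β bases. At the amino acid level P1, P2, P3 and P5 encoded the same α and β CDR3 pair, and P4 the same α with another β.

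Private clones shared α sequences with the public clones more often than β sequences. The α nucleotide sequence of a public clone was present in 45 of 73 private clones but the β nucleotide sequence of a public clone in 2, and the private clones held 19 distinct α and 68 distinct β sequences, against 3 and 3 among the 5 public clones. The largest private clones of each round are shown because they were recovered in numbers without appearing in the other round, and the last sequence because, with the α of P2, it encodes the same amino acid pair as P1.
Largest private clone of Round 2, α: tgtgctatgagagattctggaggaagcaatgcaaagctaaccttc
Largest private clone of Round 2, β: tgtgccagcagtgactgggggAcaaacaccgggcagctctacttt
Largest private clone of Round 1, α: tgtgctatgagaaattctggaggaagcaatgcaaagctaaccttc
Largest private clone of Round 1, β: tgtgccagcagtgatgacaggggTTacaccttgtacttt
Private clone of Round 1 with the amino acid pair of P1, β: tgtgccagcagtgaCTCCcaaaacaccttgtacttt

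The largest private clone of Round 2 had 516 cells and that of Round 1 had 125. The amino acid pair of P1 was encoded by 8 nucleotide clones in all: the 4 public clones, 3 private clones and 1 clone of a single cell, with 791 cells in Round 1 and 317 in Round 2. The private members of this set paired the chains printed above in other ways. A Round 2 clone of 104 cells joined the α of P2 to the β of P1, a Round 2 clone of 28 cells joined the α of P5 to the β of P2, and a Round 1 clone of 93 cells joined the α of P2 to the β printed last. A different amino acid pair was likewise reached by 8 nucleotide clones, 3 in Round 1 and 5 in Round 2, yet all 8 were private. Over all 111 clones there were 91 amino acid pairs, of which 5 were found in both rounds, 2 through public clones and 3 through different nucleotide clones in each round. In total 16 private clones therefore had an amino acid pair that occurred in both rounds. Read 1 chain at a time, 9 α nucleotide sequences occurred in both rounds, of 21 in Round 1 and 19 in Round 2, and 5 β sequences did, of 47 and 60.

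To ask whether the public clones were closer to germline than the private ones, each clone was counted once. Clones that share a chain repeat its value, and the 5 public clones held 3 distinct α and 3 distinct β sequences. These units are therefore not all independent, and the p-values do not allow for that. The β CDR3 of public clones held 0.8 ± 0.84 non-germline bases (SD, n = 5) and that of private clones 2.89 ± 2.12 (n = 61; the 12 TRBV10 clones were left out because the reference TRBV10 is a pseudogene), with an exact two-sided permutation p of 0.0364 and an adjusted p of 0.145 over the 8 TCR features compared. The difference therefore did not pass correction. Among private clones with TRBV13-3 the mean was 2.66 ± 1.93 (n = 47), and among those with both TRBV13-3 and TRBJ2-4, the segments of 4 public clones, it was 2.29 ± 1.57 (n = 17). A β chain with no non-germline base was not particular to the public class, since 3 private clones had 0 and 15 had 1. For α, public clones held 0.6 ± 0.89 (n = 5) and private clones 0.945 ± 1.07 (n = 73) non-germline bases, which was not distinguishable (exact permutation p = 0.529, adjusted p = 0.705).

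**Figure D1:**
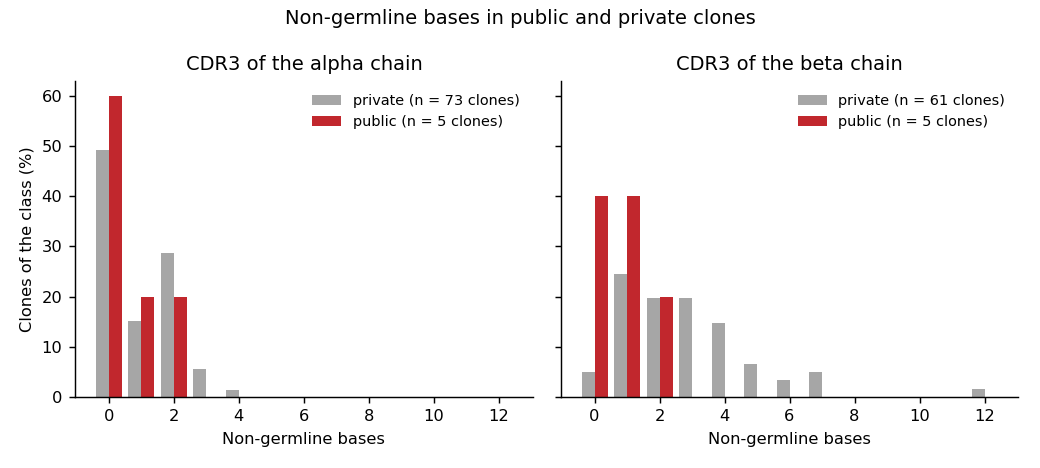
Share of clones (y axis, percent) by number of non-germline bases (x axis, bases) in the α and β CDR3 for 5 public clones and for the private clones (73 for α, 61 for β), each clone counted once. In β the public clones stop at 2 bases whereas the private clones run from 0 to 12, and in α both classes begin at 0 and the private clones reach 4.

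β segment use showed the same limits, with a shared β chain again counted once per clone. TRBJ2-4 was used by 4 of 5 public and 17 of 73 private clones (Fisher's exact test, two-sided, p = 0.0171, adjusted p = 0.137), and TRBJ2-7 by 1 of 5 and 42 of 73 (Fisher's exact p = 0.168, adjusted p = 0.268). TRBV13-3 was used by 5 of 5 public and 47 of 73 private clones (Fisher's exact p = 0.163, adjusted p = 0.268), and TRBJ2-2 by 0 of 5 and 4 of 73 (Fisher's exact p = 1, adjusted p = 1). Every α CDR3 of both classes was 45 bases long, and the β CDR3 was 36 bases in all 5 public clones and 37.7 ± 2.29 (n = 73) in private clones (exact permutation p = 0.115, adjusted p = 0.268). None of the 8 features passed correction.

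The sizes of the public clones differed between rounds, and P1 and P2 were large in Round 1 only. P1 had 116 cells in Round 1 islets and 232 in Round 1 spleen, the largest clone of its V-J class in each, but 31 cells in Round 2 islets and 6 in Round 2 spleen, where it ranked 12 of 47 and 27 of 52. P2 had 90 and 218 cells in Round 1, the second-ranked clone of both tissues, and 3 and 9 in Round 2. P3 ran the other way, with 6 islet and 27 spleen cells in Round 1 and 82 and 50 in Round 2. P4 stayed between 9 and 23 cells in all 4 libraries, at 10, 9, 12 and 23 in Round 1 islets, Round 2 islets, Round 1 spleen and Round 2 spleen. P5 was found in islets alone, with 9 cells in Round 1 and 3 in Round 2, and 0 spleen cells, where a count of 0 allows up to 0.181% of the Round 1 and up to 0.180% of the Round 2 spleen cells with a paired TCR. No public clone thus ranked among the first 2 in both rounds, and the leading public clone of Round 2, P3, was not that of Round 1.

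Together the public clones made up 40.2% (exact binomial 95% interval 36.1 to 44.3; counting error only, as for all intervals here) of TRAV16N-TRAJ42 cells in Round 1 islets and 10.9% (9.22 to 12.9) in Round 2 islets. In spleen they made up 43.5% (40.6 to 46.5) in Round 1 and 6.06% (4.89 to 7.42) in Round 2. The intervals of the 2 rounds do not overlap in either tissue, while the islet and spleen shares of Round 1 do. Cells were not shared between rounds through reused barcodes: 2 to 10 barcodes past the filters occurred in any pair of libraries, and 0 carried the same clone in both.

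**Figure D2:**
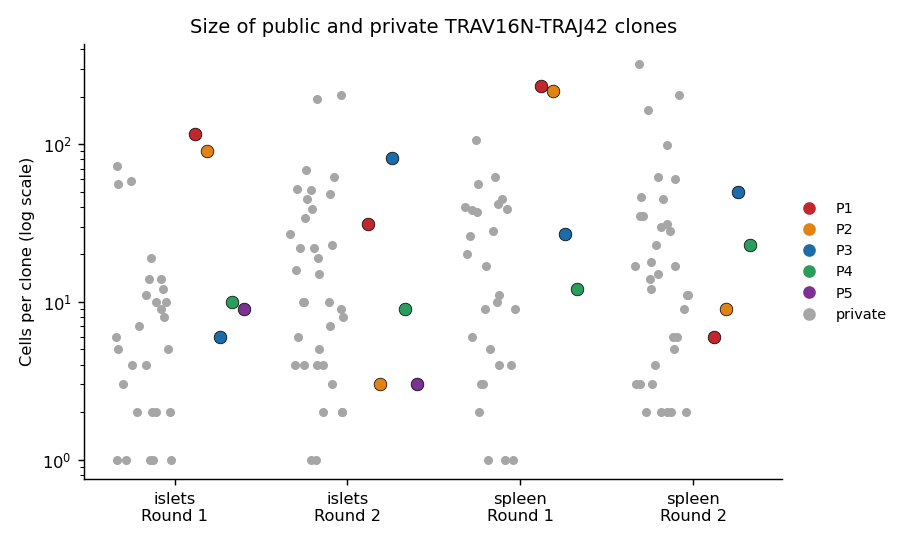
Cells per clone (y axis, log scale) in each of the 4 tetramer-positive libraries (x axis), with each private clone a grey dot and P1 to P5 in colour. P1 and P2 top both Round 1 libraries at 116 and 90 islet cells and 232 and 218 spleen cells, and sit among the private clones in Round 2, where P3 is the highest public clone at 82 and 50 cells.

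Clone size was compared within each library, counting private clones with at least 2 cells there. A larger clone has more chances to be sampled in a second pool, so size is not independent of how public clones were chosen, and the tests describe how far apart the classes lay. In Round 1 spleen public clones averaged 122.25 ± 119 cells (SD, n = 4) and private clones 25.9 ± 25.1 (n = 24), with exact permutation p = 0.00982 and adjusted p = 0.0393 over the 4 libraries. This call was lost on a log2 scale (adjusted p = 0.135), without P1 (0.275) and without the V-J restriction (0.0797), each by the exact permutation test. In Round 1 islets the means were 46.2 ± 52.7 (n = 5) and 14.6 ± 19.6 (n = 23; exact permutation p = 0.0278, adjusted p = 0.0556). In Round 2 the public mean was the lower: 25.6 ± 33.6 (n = 5) against 31.3 ± 47.3 (n = 33) in islets (exact permutation p = 0.830, adjusted p = 0.830) and 22 ± 20.1 (n = 4) against 38.6 ± 66.5 (n = 35) in spleen (p = 0.695, adjusted p = 0.830).

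The classes did not differ measurably in how their cells were divided between islets and spleen. Among clones of at least 10 cells in a round, islet cells made up on average 31.5% ± 11.3 of a public clone (SD, n = 4) and 27.3% ± 19.8 of a private clone (n = 17) in Round 1 (exact permutation p = 0.699, adjusted p = 0.806), and 49.8% ± 28.2 (n = 4) and 46.3% ± 25.1 (n = 26) in Round 2 (p = 0.806, adjusted p = 0.806). Within the public class the split varied widely: P1 was 33.3% islet in Round 1 and 83.8% in Round 2, P3 18.2% and 62.1%, P2 29.2% and 25%, and P4 45.5% and 28.1%. For P1 and P3 the exact intervals of the 2 rounds do not overlap (P1 28.4 to 38.6 and 68.0 to 93.8, P3 6.98 to 35.5 and 53.3 to 70.4). These shares depend on how many cells each tissue gave. All private cells together were 35.3% islet in Round 1 and 43.4% in Round 2.

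None of the 5 public pairs was found among tetramer-negative islet cells, at 0 of 3235 paired barcodes in Round 1 and 0 of 5875 in Round 2, which allows shares of up to 0.0927% and 0.0511%. The β of P2 and P3 was carried by 2 tetramer-negative cells of Round 1 with another α.

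Gene expression was compared on UMI counts summed over the public and over the private cells of each library, so that each library gave 2 sums, 8 in all. These sums are not evenly made up: P1 and P2 supplied 50.2% and 39.0% of public cells in Round 1 islets and 47.4% and 44.6% in Round 1 spleen, while P3 supplied 64.1% in Round 2 islets and 56.8% in Round 2 spleen. Median UMIs per public and private cell were 5209 and 4416 in Round 1 islets, 3819 and 4698.5 in Round 2 islets, 2597 and 2613 in Round 1 spleen, and 3032.5 and 2841.5 in Round 2 spleen. The round is also a sequencing run with its own read lengths, so mice and run cannot be told apart between rounds.

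Few genes differed between public and private cells when all 4 libraries were fitted together with the library as a block. This fit averages over the rounds, and 59 genes (0.702%) passed for a change of the difference between rounds, as given below. Few calls from 8 sums do not show that the classes are alike. Of 8405 genes tested, 3 (0.0357%) passed an adjusted p of 0.05 by edgeR's quasi-likelihood test, with 341 at an unadjusted p under 0.05 and a median log2 difference of 0.00 over all genes. No member passed of any list of genes for exhaustion, cytotoxicity, cytokines, memory, early TCR signalling, anergy, proliferation, homing, killer lectin-like receptors, the TCR complex or interferon. The list medians, on the scale of the log2 difference public minus private, lay between −0.25 for killer lectin-like receptors (8 tested) and 0.02 for interferon-stimulated genes (12 tested). Coinhibitory and exhaustion genes had a median of −0.08 (11 tested), cytotoxic genes −0.13 (12), cytokine genes −0.13 (8), stem and memory genes −0.07 (13), early TCR-induced genes −0.05 (15), anergy genes 0.01 (7), proliferation genes −0.10 (13) and homing genes −0.06 (12).

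Levels of some state genes that did not pass in this fit are given as examples. Others, such as Gzmb, Gzma and Klrg1 below, differed more within single libraries. Pdcd1, which encodes the inhibitory receptor PD-1, stood at 610 CPM in private and 540 in public cells of Round 1 islets, 709 and 800 in Round 2 islets, 59.3 and 59.0 in Round 1 spleen, and 55.9 and 54.2 in Round 2 spleen. Tcf7, encoding the transcription factor TCF-1 of stem-like and memory T cells, stood at 72.0 and 55.4, 89.9 and 96.3, 218 and 198, and 323 and 321 CPM in the same order. Ccl5, a chemokine gene, stood at 16280 and 14356 CPM in Round 1 islets, 16641 and 17168 in Round 2 islets, 37347 and 39776 in Round 1 spleen, and 34152 and 26137 in Round 2 spleen, where P3 and P4 lay below 21 and 19 of 22 private clones.

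The 3 genes that passed were Trbc1, Trbc2 and Nrgn. Trbc1 and Trbc2 are the constant segments of the TCR β chain, and their near-identical sequences leave the division of reads between them uncertain. Trbc1 stood at 313 CPM in private and 65.7 in public cells of Round 1 islets, 261 and 228 in Round 2 islets, 151 and 6.81 in Round 1 spleen, and 81.7 and 58.1 in Round 2 spleen. The summed public level was thus the lower in all 4 libraries, and mostly so in Round 1. The log2 difference was −1.54 (SE 0.23, edgeR adjusted p = 0.000389). Trbc2 was lower in public cells by a smaller and steadier margin: 528 and 330 CPM, 753 and 558, 332 and 276, and 514 and 298 in the same order (log2 difference −0.50, SE 0.08, edgeR adjusted p = 0.000424). Nrgn, which encodes neurogranin, is named with its values already seen because it did not move the same way in every library. It stood at 11.5 and 8.3 CPM in Round 1 islets and 18.6 and 106 in Round 2 islets, with 0 to 2.85 CPM in spleen (log2 difference 1.68, SE 0.35, edgeR adjusted p = 0.0488). The Round 2 islet level rested on few cells. There 25 of the 51 Nrgn UMIs of P3 lay in 1 cell, and 13 of the 14 of P1 in 1 cell. No gene passed without the block, and Trbc1 did not pass when a clone could give at most 20 cells (log2 difference −0.54, edgeR adjusted p = 0.599) or without Round 1 (−0.23, adjusted p = 0.874).

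Clone by clone, Trbc1 varied over a wide range, also between libraries for the same paired sequence. Cells of the 2 rounds came from separate pools of mice, so between rounds they share a sequence and are not 1 lineage. P1 had 1 Trbc1 UMI in 232 Round 1 spleen cells (1.63 CPM) and 14 in 116 Round 1 islet cells (18.3 CPM), but 72 UMIs in 31 Round 2 islet cells (482 CPM, exact Poisson interval 377 to 607), where 17 of 31 cells had a UMI. The same paired sequence thus lay below 7 of 10 private clones in Round 1 islets and above 16 of 20 in Round 2 islets. P2 had 41 UMIs in 90 Round 1 islet cells (76.0 CPM) and 1 UMI in 218 Round 1 spleen cells. P3 stood at 163 CPM in Round 2 islets, 103 in Round 1 spleen and 28.4 in Round 2 spleen, and P4 at 0, 0 and 85.8 CPM in Round 1 islets, Round 1 spleen and Round 2 spleen. P5, with 9 cells in Round 1 islets, had a Trbc1 UMI in 8 of them. The median was 2597 UMIs per public cell in Round 1 spleen, where 1 P1 cell of 232 had a Trbc1 UMI. The part of free RNA in these counts was not tested.

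Private clones showed the same range. A Trbc1 UMI was seen in 49.0%, 43.8%, 27.2% and 18% of private cells in Round 1 islets, Round 2 islets, Round 1 spleen and Round 2 spleen, and among private clones of at least 10 cells with a TRBJ2 segment, 3 of 10, 6 of 18, 5 of 14 and 8 of 19 had no Trbc1 UMI. Medians of these clones were 269, 67.6, 139 and 30.6 CPM. Those of the public clones were 18.3, 322, 1.64 and 57.1 CPM. By clone median the public class was therefore the higher in both Round 2 libraries, on 2 public clones in each, unlike the sums. All 5 public clones and 67 of 73 private clones used a TRBJ2 segment, which lies downstream of Trbc1 (chr6:41538218-41539881) and upstream of Trbc2 (chr6:41546730-41548352) in the reference.

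**Figure D3:**
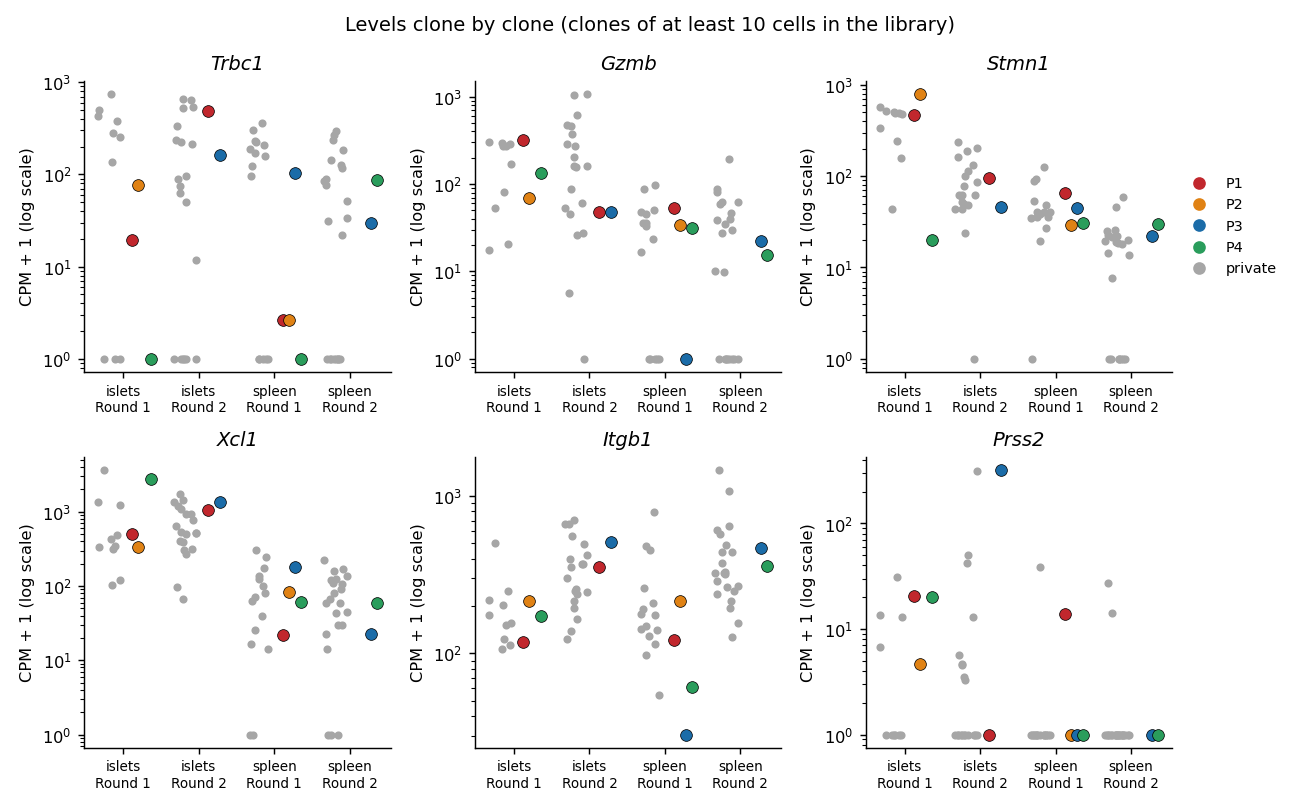
Level per clone (y axis, CPM + 1 on a log scale) of Trbc1, Gzmb, Stmn1, Xcl1, Itgb1 and Prss2 in each library (x axis) for clones of at least 10 cells, private clones as grey dots and public clones in colour. For Trbc1, P1 lies at 18.3 CPM in Round 1 islets and 482 CPM in Round 2 islets, and the private clones run from 0 to 740 CPM; for Prss2, P3 at 321 CPM in Round 2 islets is level with 1 private clone.

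With clones of at least 10 cells as the units, so that the spread between clones set the error, 0 of 3229 genes in islets (3 public and 10 private clones in Round 1, 2 and 20 in Round 2; 48 at an unadjusted p under 0.05) and 0 of 2297 genes in spleen (4 and 15 in Round 1, 2 and 22 in Round 2; 70 at an unadjusted p under 0.05) passed by edgeR's test, a percent called of 0 in both. DESeq2 with the same design also called 0 in both tissues. Trbc1 in spleen came nearest among the genes named above (log2 difference −3.28, SE 0.77, edgeR adjusted p = 0.157). Genes for which every public clone of at least 10 cells lay outside the range of the private clones numbered 22 of 12279 detected in Round 1 islets (0.179%), 35 of 13524 in Round 2 islets (0.259%), 2 of 12551 in Round 1 spleen (0.0159%) and 35 of 13013 in Round 2 spleen (0.269%), counts that depend on the 3, 2, 4 and 2 public clones at hand. The 2 of Round 1 spleen were Gm6225 and Gcnt1, both at 3.78 CPM in public cells and at 0 in private cells. These levels are near the floor: Gcnt1 in P2 stood at 1.65 CPM, the level that 1 UMI gives in that clone.

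Within islets, 9 of 8402 genes (0.107%) passed by edgeR's test with the round as a block, and none without it or by DESeq2. The list genes among them were the trypsinogen gene Prss2, higher in public cells (6.04 and 12.5 CPM in Round 1, 25.1 and 202 in Round 2; log2 difference 2.69, SE 0.26, edgeR adjusted p = 7.37e-21), besides Trbc1 (−1.16, SE 0.17) and Trbc2 (−0.54, SE 0.13). Prss2 in Round 2 came from P3: 130 UMIs in 26 of its 82 cells (321 CPM), with 0 in the 31 cells of P1 and 0 in the 50 P3 spleen cells of that round, and without P3 the log2 difference was −0.05. Among private cells of Round 2 islets, 22 of 1034 had a Prss2 UMI and 1 clone reached 313 CPM. The other exocrine markers summed to 21.7 CPM in public and 106 in private cells of that library, so the list as a whole did not follow Prss2. In the reference Prss2 (chr6:41521787-41525079) lies between TRBV13-3 and the TRBD1-TRBJ-TRBC segments, within the TCR β locus.

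The remaining islet genes, named with their values already seen, were carried by few cells or clones. Areg, which encodes the growth factor amphiregulin, stood at 4.95 and 11.1 CPM in Round 1 and 27.4 and 90.1 in Round 2 (log2 difference 1.61, SE 0.30, edgeR adjusted p = 7.87e-05), led by P3 at 128 CPM. Gm156 stood at 11.0 and 0.692 CPM in Round 1 but 6.14 and 62.1 in Round 2, where 14 of 31 P1 cells and 11 of 82 P3 cells had a UMI, whereas P1 had 0 in 116 islet and 0 in 232 spleen cells of Round 1. P3 also led in Round 2 spleen at 63.9 CPM, above all 22 private clones. Cyp1a1 UMIs of public cells came from 1 P2 cell with 9 in Round 1 and 1 P3 cell with 12 in Round 2, and Susd2 stood at 9.34 and 9.0 CPM in Round 1 and 13.2 and 54.4 in Round 2. The lincRNA 5830405F06Rik (chr6:41055883-41063102, at the V end of the β locus) was at 0 in public cells of all 4 libraries and at 19.2, 8.67, 23.7 and 4.66 CPM in private cells, where clones with TRBV10, a segment no public clone used, reached 34.8 to 263 CPM and a few clones with TRBV13-3 18.4 to 37.5 CPM.

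Within spleen, 5 of 8550 genes (0.0585%) passed, all lower in public cells, with the round as a block and none without it or by DESeq2. Besides Trbc1 (log2 difference −3.05, SE 0.25), Gzma, which encodes granzyme A of cytotoxic granules, stood at 298 CPM in private and 195 in public cells in Round 1 and 316 and 58.1 in Round 2 (−0.95, SE 0.13, edgeR adjusted p = 1.07e-09). P1 and P3 lay at 254 and 339 CPM in Round 1 spleen, P2 at 129 and P4 at 0, and P3 and P4 at 56.8 and 100.1 in Round 2, against private medians of 200.2 and 232, so the clones of both classes overlapped. Cd5, a negative regulator of TCR signalling, was at 302 and 191 CPM in Round 1 and 268 and 198 in Round 2 (−0.57, SE 0.13, edgeR adjusted p = 0.0184). By clone, P1, P2, P3 and P4 lay at 223, 172, 118 and 120 CPM of Cd5 in Round 1 spleen. In Round 2 spleen P3 lay at 156 CPM, but P4 at 400, above the private level of 268. Ikzf2, which encodes the transcription factor Helios, was at 73.5 and 34.1 CPM and at 69.3 and 38.7 (−1.02, SE 0.24, edgeR adjusted p = 0.0256). Rnf43, a ubiquitin ligase gene named with its values already seen, stood at 24.3 and 4.54 CPM and 24.1 and 11.6 (−2.01, SE 0.46, edgeR adjusted p = 0.0256). Of the public clones left out one at a time, P2 or P3 ended the call for Cd5, and P1, P3 or P4 those for Ikzf2 and Rnf43.

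Whether the class difference itself differed between islets and spleen was tested in the 4-library fit, where 2 of 8405 genes (0.0238%) passed. The public-private difference was lower in spleen than in islets, with a log2 difference of differences of −1.75 for Gzma (SE 0.28, edgeR adjusted p = 2.04e-05) and −1.77 for Trbc1 (SE 0.39, edgeR adjusted p = 0.0378). Neither passed without the library block, by DESeq2, or without any one of P1, P2 and P4, and Trbc1 was also lost without P5 and when DESeq2's size factors replaced TMM.

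The class difference changed between rounds at more genes than it differed overall: 59 of 8405 (0.702%) passed for the change from Round 1 to Round 2, with 740 at an unadjusted p under 0.05, 32 of them with a higher and 27 with a lower public-private difference in Round 2. The public sums of the 2 rounds were mainly P1 and P2 in Round 1 and P3 in Round 2, so the change of clones and the change of round cannot be told apart in these sums. Each round is 1 pool of mice whose islet and spleen libraries stand as its replicates, so these p-values compare 1 pool with 1 other pool and do not measure the spread between mice. The count was 2 without the library block (Gzmb and Trbc1 among them), 3 by DESeq2, 9 with at most 20 cells per clone, 32 without P1 and 15 without P3, and 0 in either tissue with clones as units.

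Gzmb, the granzyme B gene, had the lowest change of the difference among the list genes that passed. It stood at 145 CPM in private and 269 in public cells of Round 1 islets, and 250 and 51.3 in Round 2 islets. In spleen it stood at 32.0 and 40.1 CPM in Round 1 and 39.6 and 19.4 in Round 2. The public level was thus the higher in both Round 1 libraries and the lower in both Round 2 libraries (log2 change of the difference −2.93, SE 0.26, edgeR adjusted p = 3.52e-16). P1 stood at 315 CPM in Round 1 islets, above all 10 private clones, but P2 at 68.6 and P4 at 133 lay below 7 and 6 of them, and P5 had 0 UMIs in 9 cells. In Round 2 islets P1 at 46.8 and P3 at 46.9 CPM both lay below 15 of 20 private clones. In Round 1 islets 241 of the Gzmb UMIs of public cells lay in P1 and 104 in a single cell of P3. Of 12 cytotoxic genes, 3 had a lower difference in Round 2 and none a higher one, beside 0.702% of all genes called in either direction. The 3 were Gzmb, Gzma (−1.48, SE 0.33) and Gzmk (−0.65, SE 0.14). The list median was −0.26, beside −0.02 over all genes tested. With at most 20 cells per clone the change for Gzma was 0.13, of the opposite sign.

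Of 13 proliferation genes tested, 6 had a lower public-private difference in Round 2 and none a higher one, beside 0.702% of all genes called in either direction. The list median was −1.27, and 0 of 13 lay above 0, beside 48.4% of all genes tested. The 6 were Rrm2, which encodes a ribonucleotide reductase subunit (−2.70, SE 0.44), the replicative helicase gene Mcm5 (−1.73, SE 0.35), the mitotic genes Birc5 (−1.61, SE 0.38) and Top2a (−1.49, SE 0.35), the microtubule regulator Stmn1 (−1.46, SE 0.26) and the chromatin gene Hmgb2 (−0.49, SE 0.12). Stmn1 stood at 425 CPM in private and 549 in public cells of Round 1 islets, 124 and 49.7 in Round 2 islets, 48.0 and 46.2 in Round 1 spleen and 17.3 and 19.4 in Round 2 spleen, so the change lay in islets. P2 at 788 CPM was above all 10 private clones in Round 1 islets, and P1 at 464 lay below 6 of them. P4 at 19.0 lay below all 10, but on 1 UMI (exact Poisson interval 0.482 to 106 CPM).

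Among genes with a higher difference in Round 2 were Xcl1, which encodes the chemokine lymphotactin, and Itgb1, the integrin β1 gene. Xcl1 stood at 769 CPM in private and 588 in public cells of Round 1 islets and at 566 and 1197 in Round 2 islets (log2 change 1.26, SE 0.16, edgeR adjusted p = 2.07e-08), but at 80.0 and 57.5 in Round 1 spleen and 78.4 and 42.6 in Round 2 spleen, where the public level was the lower in both rounds. Itgb1 changed in both tissues: 241 and 174 CPM in Round 1 islets, 315 and 454 in Round 2 islets, 228 and 157 in Round 1 spleen, and 337 and 507 in Round 2 spleen (1.05, SE 0.15, edgeR adjusted p = 4.94e-07). P3 reached 513 CPM of Itgb1 in Round 2 islets, with 4 of 20 private clones above it. In Round 1 spleen the same paired sequence stood at 29.5 CPM in 27 cells, below all 15 private clones. That value rests on 2 UMIs (exact Poisson interval 3.57 to 106 CPM).

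A few early TCR-induced and memory genes also had a higher difference in Round 2. Over all genes tested 0.702% passed, in either direction, and the median change was −0.02. Of 15 early TCR-induced genes, 3 passed: Tnfrsf4, encoding the costimulatory receptor OX40 (1.36, SE 0.26), the nuclear receptor gene Nr4a3 (0.99, SE 0.23) and the AP-1 gene Junb (0.60, SE 0.11), with a list median of 0.27. Nr4a3 in Round 2 islets stood at 388 CPM in P1 and 353 in P3, with 1 and 2 of 20 private clones above them, whereas in Round 1 islets P1 at 86.3 and P2 at 57.5 lay below 7 and 10 of 10. Of 13 stem and memory genes, 2 passed, the IL-7 receptor gene Il7r (1.09, SE 0.20) and Slamf6 (0.81, SE 0.22), with a list median of 0.25. Il7r stood at 366 and 276 CPM in Round 1 spleen and 382 and 562 in Round 2 spleen.

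Killer lectin-like receptor genes split, and the lowest change on the list, −6.28, did not pass. Of 8 tested, Klrk1, encoding the activating receptor NKG2D, had a higher difference in Round 2 (0.88, SE 0.16), and Klrg1, a marker of terminal effectors (−1.996, SE 0.47), and Klrc1, encoding the inhibitory receptor NKG2A (−0.48, SE 0.12), had a lower one, which for Klrc1 turned to 0.23 without P1. Havcr2, encoding the inhibitory receptor TIM-3 (−1.58, SE 0.39), was the 1 of 11 coinhibitory genes to pass, Cd247, the CD3ζ gene (−0.70, SE 0.18), the 1 of 14 TCR complex genes, and Ly6a (−0.76, SE 0.15) the 1 of 12 interferon-stimulated genes. Of all genes tested, 0.702% passed for the change between rounds, in either direction. Trbc1 was among them (2.46, SE 0.24). Klrg1 in spleen stood at 87.7 and 93.9 CPM in Round 1 and 88.5 and 23.2 in Round 2, and P1 alone held 159 CPM in Round 1, with 1 of 15 private clones above it.

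Over all 59 genes, the pattern was that of the islets. The 32 genes with a higher difference in Round 2 were above private cells in public cells for 0 genes in Round 1 islets, 31 in Round 2 islets, 4 in Round 1 spleen and 21 in Round 2 spleen, and the 27 with a lower difference for 25, 0, 18 and 3. These signs follow in part from how the genes were called. By clone, P1 lay above the private median at 8 of the 32 and 23 of the 27 genes in Round 1 islets, and at 27 and 8 in Round 2 islets. P3 lay above it at 32 and 3 genes in Round 2 islets, and P4, with 10 cells, at 14 and 6 in Round 1 islets, unlike P1 and P2.

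**Figure D4:**
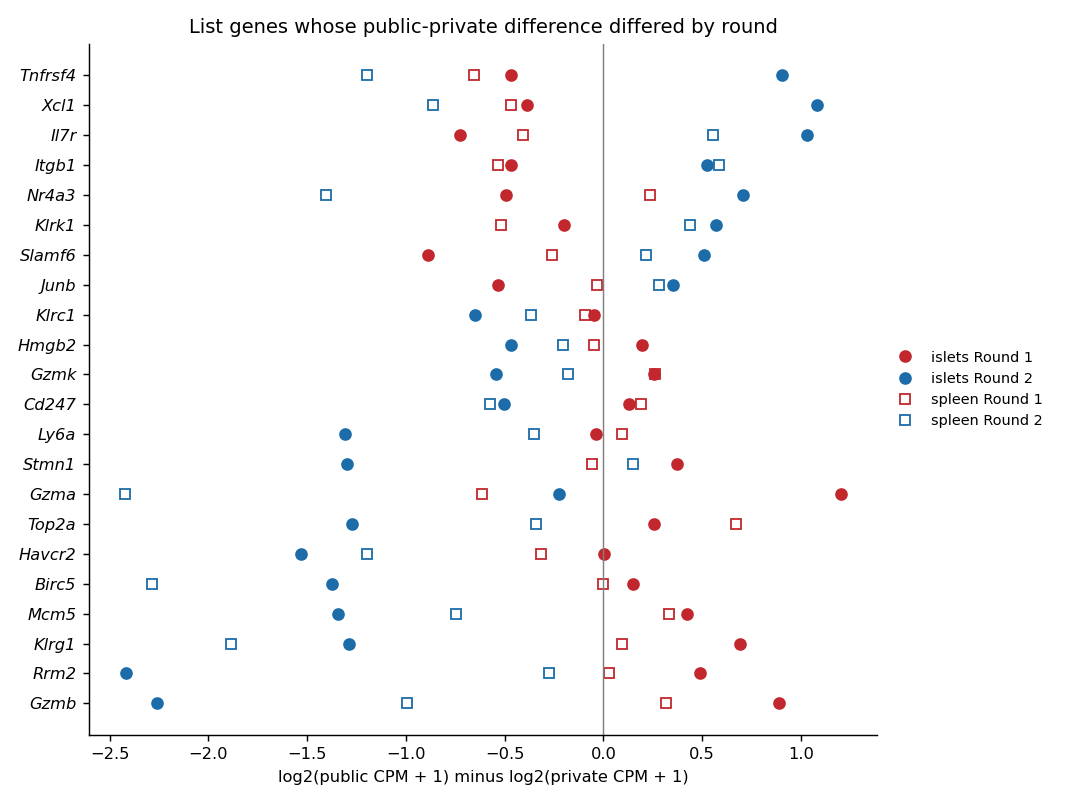
Difference between public and private cells (x axis, log2 of CPM + 1, public minus private) in each of the 4 libraries for the 22 list genes (y axis) whose public-private difference changed between rounds. Gzmb lies above 0 in both Round 1 libraries and below 0 in both Round 2 libraries, and Itgb1 the other way round.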

How the data were processed

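Paired single-cell gene expression and TCR libraries of tetramer-positive islet and spleen CD8 T cells from 2 rounds were used. The authors made the deposited files with Cell Ranger and mm10 from 10x 5′ libraries: UMI counts per gene and cell, unnormalized, and lists of TCR contigs. Cells with under 5% mitochondrial UMIs and 200 to 3500 (islets) or 200 to 2000 (spleen) genes were kept. No doublet caller was run and free RNA was not removed. Cells with exactly 1 TRA and 1 TRB contig were grouped by CDR3 nucleotide pair; TRAV16 variants are as Cell Ranger named them. Non-germline bases were those left after matching V, then J, then D (at least 3 bases) of GRCm38 (GENCODE vM21).

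Counts were summed per class and library, or per clone of at least 10 cells, without 254 TCR segment genes, and tested with edgeR 4.0.16 (R 4.3.3; quasi-likelihood, TMM, filterByExpr, Benjamini-Hochberg adjustment, threshold 0.05) with library or round as a block. Both sums of a library come from 1 pool of mice and 1 run, and their deviations correlated over 8405 genes (r = 0.627 in islets, 0.461 in spleen), so the block was kept. DESeq2 1.42.0 was an alternative. The islet and spleen fits leave 1 residual degree of freedom. Clone features were tested with exact permutation of the difference in means (own code in Python 3.11.15) or Fisher's exact tests over clones, which are not independent mice. Scripts were tested on simulated data. Named genes were, in each direction, the 8 largest calls of the 4-library fit with 1 direction in all libraries and at least 20 CPM, the 5 largest of each clone fit, called members and the 3 most abundant of each list, and genes outside the private range where 5 or fewer; others are marked. Clones and the 17 gene lists were chosen with earlier results of these data known. Fold changes of genes at 0 depend on the prior count.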

Additional observations from a re-analysis of the deposited data

Results flagged for a closer look

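The public-private difference changed between islets and spleen for 2 genes, Trbc1 (log2 difference of differences −1.77) and Gzma (−1.75), and between Round 1 and Round 2 for 59 genes, in each case by a test of the difference itself (edgeR interaction term). The round term compares 1 pool of mice with 1 other pool, with the islet and spleen libraries of a pool as its replicates. The named genes with a higher public-private difference in Round 2 were Trbc1 (2.46), Tnfrsf4 (1.36), Xcl1 (1.26), Il7r (1.09), Itgb1 (1.05), Nr4a3 (0.99), Klrk1 (0.88), Slamf6 (0.81) and Junb (0.60). Those with a lower one were Gzmb (−2.93), Rrm2 (−2.70), Klrg1 (−1.996), Mcm5 (−1.73), Birc5 (−1.61), Havcr2 (−1.58), Top2a (−1.49), Gzma (−1.48), Stmn1 (−1.46), Ly6a (−0.76), Cd247 (−0.70), Gzmk (−0.65), Hmgb2 (−0.49) and Klrc1 (−0.48). With clones as units none of these passed.

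TRAV16N-TRAJ42 pairs also appeared outside the tetramer-positive libraries: 13 tetramer-negative islet cells of Round 1 and 21 of Round 2 carried one, of 3235 and 5875 paired barcodes. How many such cells imperfect sorting would give was not tested. Private clones of the tetramer-positive libraries accounted for 6 of the 13 in Round 1 and 3 of the 21 in Round 2, and public clones for 0 in either round.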

How the results depend on the processing

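The number of public clones was 5 under every alternative run except that dropping the filter on cells made it 6, the added clone holding 1 cell in Round 1 islets and 83 and 41 cells in Round 2 islets and spleen. The size difference (public minus private mean cells) passed in Round 1 islets when clones of 1 cell were included (35.1) and missed the threshold in Round 1 spleen on a log2 scale (2.05), without P1 (59.75) and without the V-J restriction (95.2). It changed sign in Round 2 islets with clones of 1 cell (0.814) and no cell filter (5.23), in Round 2 spleen on a log2 scale (0.115), and for the islet share of Round 2 without its largest public clone (−0.704 percentage points), none of which was a called difference. Non-germline β bases and TRBJ2-4 use kept their direction and missed correction in all alternatives.

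Counts of genes moved more. For the 4-library fit (3 genes) they were 0 with no replicate block, 25 with no filter on low counts, 5 with TRBV13-3 only, 5 without the V-J restriction, 8 without P1, 6 without P2 and 1 without P3, and 2 to 54 with a round left out, 54 being without Round 1. For islets (9) they were 0 with no block, 0 by DESeq2, 15 with private clones of at least 10 cells, 2 with TRBV13-3 only, 1 without the V-J restriction, 0 without P3 and 4 without P5. For spleen (5) they were 0 with no block, 0 by DESeq2, 17 with TRBV13-3 only, 2 with at most 20 cells per clone, 36 without P1, 2 without P3 and 3 without P4. With clones as units (0) they were 11 in islets and 1 in spleen with no low-count filter, and in spleen 1 with TRBV13-3 only, 1 without P1, 1 without P3 and 0 to 1 with a round left out. A round could not be left out of the islet or spleen sums, since no residual degree of freedom remains.

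Alternatives for the changes between tissues and rounds were chosen after seeing the data. For tissue (2 genes) the counts were 1 with DESeq2's size factors, 1 without P5, and 0 by DESeq2, with no block, with private clones of at least 10 cells, with at most 20 cells per clone, without P1, P2 or P4, and with clones as units. For rounds (59) they were 3 by DESeq2, 2 with no block, 9 with at most 20 cells per clone, 32 without P1, 15 without P3, and 0 with clones as units. Of single-gene values, 527 kept their direction and their side of the threshold, 470 kept direction and lost the call, and 6 changed sign: Nrgn in the 4-library fit without Round 2 (−0.43; 2.40 without Round 1), Prss2 in islets without P3 (−0.054), Gm156 in islets by DESeq2 (−0.084), and in the round term Gzma with at most 20 cells per clone (0.13), Xcl1 with clones as units in spleen (−0.76) and Klrc1 without P1 (0.23). The cause of these changes was not tested. With 2 rounds, pools of unlabelled mice and 5 public clones, of which 2 or 3 supply most cells of a sum, the tests measure spread between these libraries and clones and not between mice.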
